A study of Mus musculus with 4 samples.

Results

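The 10 genes described here encode the B cell receptor complex and its proximal signalling proteins: Cd79a, Cd79b, Ms4a1, Cd22, Blk, Syk, Btk, Blnk, Cr2 and Fcer2a. They were chosen by name, and 16 probe sets (groups of short probes against 1 transcript) carry their symbols alone, of 45037 probe sets on the array. All 10 are among the 12645 genes tested (of 18193 genes named alone by a probe set); 14 of their 16 probe sets passed the filter on weak signals. Expression was measured on 4 Affymetrix 3' arrays with RNA of untreated IgA-positive primary cells, 2 arrays of the CD11b-positive and 2 of the CD11b-negative fraction. The cells came from the small intestine of 9-week-old female mice of the Balb/c strain, and the titles mark all arrays WT. Each labelling kit was used for 1 array of both fractions: the One-Cycle kit with 1 µg of RNA (replicate 1 of each fraction) and the 3' IVT Express kit with 0.1 µg (replicate 2 of each fraction). The labels do not say whether arrays came from separate mice, sorts or pools, so the p-values speak of the spread among these arrays alone, and that spread may be technical.

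On B cells the receptor is a membrane immunoglobulin held together with the CD79a and CD79b chains, whose tails carry the tyrosine motifs that start signalling. Src-family kinases such as Blk and Lyn phosphorylate these motifs, Syk docks on them, and the adaptor Blnk brings Btk and the phospholipase Plcg2 together so that calcium and NF-kB signals follow. Cr2 (CD21) lowers the threshold through complement, Cd22 and Fcgr2b dampen the signal, and Ms4a1 (CD20) and Fcer2a (CD23) are surface proteins of mature B cells. Plasma cells lose many of these genes as they turn to secretion, but IgA plasma cells are known to keep some surface immunoglobulin. The question here was which parts of the pathway were measured in gut IgA cells and whether they differed between the CD11b-positive and CD11b-negative fractions.

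The identity of the fractions was checked first. Itgam, the gene of CD11b, had signals of 189 and 109 in CD11b-positive against 28.3 and 15.8 in CD11b-negative arrays. Itgb2, a beta-2 integrin gene, did not rise with it. Its log2 difference (CD11b-positive minus CD11b-negative) ran from -0.40 to -0.19 on leaving out each array. All 16 plasma cell markers on the list used here lay above background on all 4 arrays, as did 8 of 17 mature B cell markers. Background was taken as the 95th percentile of 44 probe sets of olfactory receptor genes on each array, since the deposited table holds no detection calls. It stood at 24.7 and 26.4 in CD11b-positive and 20.4 and 17.4 in CD11b-negative arrays. The deposited arrays differed in overall signal (2% trimmed means of 73.8 and 90.3 in CD11b-positive against 48.6 and 70.05 in CD11b-negative arrays), so all signals below are quantile-normalized unless called deposited. The 3' to 5' signal ratio of the beta-actin controls was 1.43 and 1.61 in CD11b-positive against 1.90 and 1.84 in CD11b-negative arrays. Fewer cells of a type and less RNA per cell cannot be told apart in such bulk RNA.

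Of the members, 8 had a probe set above background on all 4 arrays: Cd79a, Cd79b, Ms4a1, Blk, Syk, Btk, Blnk and Cr2. The probe set used for Cd22 exceeded background on both One-Cycle arrays and on neither 3' IVT Express array. That of Fcer2a exceeded it on both CD11b-negative arrays and on neither CD11b-positive array. A second probe set of Cd22 and one of Fcer2a were below background on every array. With the 99th percentile of the olfactory receptor probe sets as background 7 members remained above it on all 4 arrays. Cr2 exceeded it on 2, the probe set used for Cd22 on 1 and that of Fcer2a on 0. The signal of a probe set also depends on its probes, so these calls say which transcripts were measured and not which gene was expressed more.

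**Figure D1:**
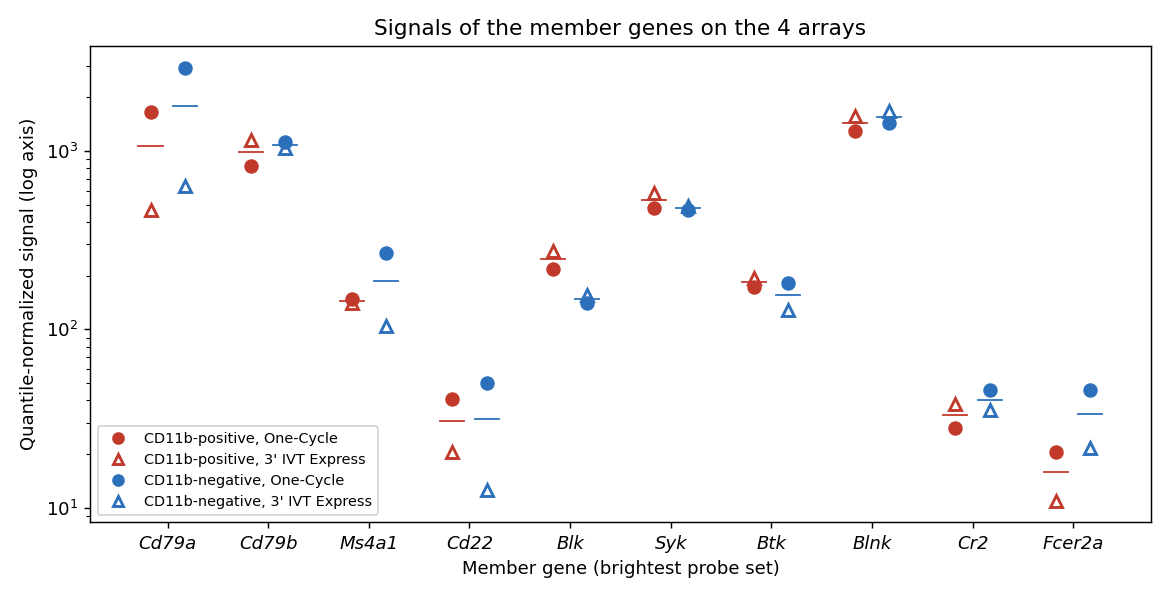
Quantile-normalized signal (log axis) of the brightest probe set of each member gene on each array, with CD11b-positive left of CD11b-negative and horizontal lines at the fraction means; filled circles are One-Cycle and open triangles 3' IVT Express arrays. The fractions separate for Blk and, with both CD11b-positive signals below background, for Fcer2a. Cd79a separates by kit. Heights of different genes cannot be compared.

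The promoters show where transcription of these genes starts, and they are printed for Cd79a, the member that fell with the kit as a block, and for Blnk, whose signal differed little between the fractions. Both are the 250 bases upstream of the start site on the coding strand, from RefSeq (GRCm38.p6), which is another strain than the mice studied; 7 of the 10 members had a promoter there, 10 promoters in all. Capitals mark matches on either strand to ATTTGCAT, the octamer bound by Oct factors, or AGGAAGT, a core bound by Ets factors; also searched was a palindrome bound by EBF, TCCC and GGGA with any 2 bases between them.
Cd79a, chr7:24897247-24897496, plus strand: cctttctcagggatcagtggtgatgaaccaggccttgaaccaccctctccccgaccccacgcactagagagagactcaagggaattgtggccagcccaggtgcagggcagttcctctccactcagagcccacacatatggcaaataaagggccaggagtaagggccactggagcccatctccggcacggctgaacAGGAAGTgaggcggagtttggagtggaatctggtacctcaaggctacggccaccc
Blnk, chr19:40994222-40994471, minus strand: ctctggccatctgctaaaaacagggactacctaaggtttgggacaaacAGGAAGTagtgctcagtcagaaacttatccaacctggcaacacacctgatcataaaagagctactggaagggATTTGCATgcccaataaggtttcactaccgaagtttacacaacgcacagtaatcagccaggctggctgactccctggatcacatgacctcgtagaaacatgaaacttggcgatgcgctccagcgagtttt
Both hold the Ets core, which occurs in 7.69% of 32851 mouse promoters of this length, and only Blnk of the 2 holds the octamer, which occurs in 1.601%. The Cd22 promoter has 1 match to the EBF motif, found in 0.779% of promoters. The promoters of Syk, Btk, Cr2 and Fcer2a hold none of the 3 motifs in this window. A match is a description of letters and not evidence of binding. Only exact matches were searched, so the lack of a match is not evidence that a factor has no site there.

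Across the members, the fractions were compared with limma on log2(signal + 3), so folds understate differences of weak genes. Without a term for the kit, 0 members and 0 of 12645 genes passed at a Benjamini-Hochberg adjusted p under 0.05 (0% called in either direction). At an unadjusted p under 0.05, 1 member was higher (Blk) and 0 were lower, where 3.14% of all genes were higher and 3.52% lower. With the kit as a block, Blk was called higher and Cd79a lower. In that fit 3.73% of all genes were called higher and 4.14% lower, so 1 of 10 in each direction is close to the background. With 1 residual degree of freedom, the blocked fit takes most of its error from other genes of similar signal. Without that trend of error with signal (tried after seeing the data), limma with the block called 0 of all genes, and the adjusted p was 0.370 for Blk and 0.381 for Cd79a. Adjusted p-values below are from limma and are given for the fit with the kit as a block, unless stated.

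Among the receptor chains, Cd79a (Ig-alpha, chromosome 7) had the widest range of signals of any member. With the One-Cycle kit its signal was 1659 in the CD11b-positive against 2936 in the CD11b-negative array, and with the 3' IVT Express kit it was 468 against 638. Both CD11b-positive arrays were thus below the CD11b-negative array of their own kit, but the fractions overlapped because the kits lay so far apart. In the CD11b-positive fraction Cd79a was lower by 1.55-fold (log2 difference -0.63, 95% interval -0.85 to -0.42, adjusted p = 0.000157; without the block 0.946). Within the kits the difference was -0.82 (One-Cycle) and -0.45 (3' IVT Express). The deposited signals were 1685 and 622 in CD11b-positive against 1840 and 637 in CD11b-negative arrays. On that scale both CD11b-positive signals were only slightly lower than their partners, and the call was lost (adjusted p = 0.772). The median of all genes stood 0.42 higher (log2) in the CD11b-positive arrays there, and relative to it Cd79a was at -0.50. Without an array the kits become uneven, and the value of Cd79a then ran from -1.73 to 0.46.

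The kit difference of Cd79a was -2.01 (log2, 3' IVT Express minus One-Cycle), or 4.02-fold lower with 3' IVT Express. Only 0.348% of genes had a larger absolute kit difference, and the median absolute kit difference over all genes was 0.29. The kit difference of Cd79a is thus larger than its difference between the fractions. Kit, RNA amount and replicate change together on these arrays, so they cannot be told apart in any kit difference given here. Cd79a has 1 probe set on the array, so no second measurement of it was at hand.

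Cd79b (Ig-beta, chromosome 11), the partner of Cd79a in the receptor, did not follow it. Its signals were 823 and 1158 in CD11b-positive against 1128 and 1036 in CD11b-negative arrays, so the fractions overlapped. The log2 difference was -0.15 (95% interval -0.39 to 0.09, adjusted p = 0.557), with -0.45 within One-Cycle and 0.16 within 3' IVT Express. Relative to all genes it turned to 0.02 on the deposited signals. The other part of the receptor, the immunoglobulin itself, was at the top of the signal range: Igha, the IgA heavy chain, had a mean of 11357 ± 490 in CD11b-positive and 12168 ± 658 in CD11b-negative arrays (SD, n = 2 each). Of its other probe sets one gave -0.26 and one -0.64, with 6720 and 4853 in CD11b-positive against 9319 and 8459 in CD11b-negative arrays, and the last passed in a fit per probe set with the block (adjusted p = 0.00905). The brightest probe set of Ighm, the IgM heavy chain, had 7889 ± 806 in CD11b-positive and 9648 ± 664 in CD11b-negative arrays (SD, n = 2 each; 1.22-fold lower, adjusted p = 0.0134). That p-value is from the blocked fit with 1 probe set per gene, in which Igha did not pass (adjusted p = 0.515). In the blocked fit per probe set, the same Ighm probe set did not pass (adjusted p = 0.273). A weaker Ighm probe set, at -0.58, passed there (adjusted p = 0.0174). Yet another had only 1250 and 1092 in CD11b-positive against 1457 and 1339 in CD11b-negative arrays. The signals of Ighm and Igha thus do not compare the amounts of the 2 messages. Quantile normalization leaves little room for differences at the top of the range, and membrane and secreted forms cannot be told apart here.

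Of the kinases, Blk, a Src-family kinase of the B lineage (chromosome 14), rose. It had signals of 219 and 276 in CD11b-positive against 141 and 156 in CD11b-negative arrays. Both CD11b-positive arrays lay above both CD11b-negative arrays. Arrays separated in this direction for 18.3% of all genes, and among members for Blk alone. The mean was 247 ± 40.7 in CD11b-positive and 149 ± 10.99 in CD11b-negative arrays (SD, n = 2 each). Blk was 1.64-fold higher (log2 difference 0.72, 95% interval 0.39 to 1.04, adjusted p = 0.00341; without the block 0.627). The difference was 0.62 within One-Cycle and 0.81 within 3' IVT Express, and it ran from 0.55 to 0.88 on leaving out each array. The deposited signals, 227 and 363 in CD11b-positive against 97.5 and 156 in CD11b-negative arrays, gave 0.78 relative to all genes. Blk has 1 probe set as well.

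Syk, which binds the phosphorylated CD79 tails (chromosome 13), had signals of 476 and 582 in CD11b-positive against 469 and 492 in CD11b-negative arrays. The values nearly coincided, and the log2 difference was 0.13 (95% interval -0.11 to 0.37, adjusted p = 0.628). Its 3 other probe sets above the filter gave 0.25, 0.27 and 0.33, all positive, while 2 of the 4 were negative within 1 kit. Btk, which activates Plcg2 (chromosome X), had 174 and 194 in CD11b-positive against 181 and 129 in CD11b-negative arrays. It was at -0.06 within One-Cycle and 0.58 within 3' IVT Express (mean 0.26, 95% interval -0.10 to 0.62, adjusted p = 0.455). On the deposited signals with the block, where most genes stand higher in the CD11b-positive arrays, Syk and Btk passed (adjusted p = 0.00376 and 0.00568). Those p-values are for differences with that general shift left in. Relative to all genes Syk and Btk were at 0.27 and 0.34, and those relative values were not tested.

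Syk and Btk are also genes of myeloid cells, so the myeloid markers are given beside them. Of 19 macrophage, monocyte and dendritic cell markers on the array, 6 were above background on all 4 arrays and 4 on none. Their summed signal was 756 and 625 in CD11b-positive against 568 and 512 in CD11b-negative arrays, with a median difference of 0.59 within One-Cycle and -0.0040 within 3' IVT Express over 14 tested genes. Within both kits 5 were higher, 3 lower and 6 mixed, where 31.6% of all genes were higher and 30.5% lower. With the block 1 of the 14 was higher and 0 lower, against 3.73% and 4.14% of all genes. The one called was Itgax, the integrin chain CD11c, 1.81-fold higher in the CD11b-positive fraction (adjusted p = 0.0132). Their part in the values of Syk and Btk was not tested.

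The adaptor Blnk (chromosome 19) had close signals in the fractions, with 1299 and 1574 in CD11b-positive against 1438 and 1668 in CD11b-negative arrays. Each CD11b-positive array was slightly below its partner, at -0.15 within One-Cycle and -0.08 within 3' IVT Express. The mean difference was -0.11 (95% interval -0.31 to 0.08, adjusted p = 0.571).

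Among coreceptors and surface proteins, Ms4a1, which encodes CD20 (chromosome 19), went opposite ways with the kits. It had 148 in the CD11b-positive against 267 in the CD11b-negative array with One-Cycle, and 141 against 105 with 3' IVT Express. Its CD11b-negative arrays lay on either side of both CD11b-positive arrays. A second probe set did the same, with 45.6 against 68.8 and 67.1 against 30.2. The mean difference was -0.21 for the probe set used (95% interval -0.64 to 0.21, adjusted p = 0.652) and 0.02 over both probe sets.

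Cd22, a sialic acid-binding inhibitor of the receptor (chromosome 7), had signals of 40.9 and 20.5 in CD11b-positive against 50.2 and 12.6 in CD11b-negative arrays. Both 3' IVT Express signals were below background, so no direction was measured with that kit. With One-Cycle the difference was -0.28, and the call was not made (adjusted p = 0.882). Cr2, the complement receptor CD21 (chromosome 1), had 27.8 and 38.2 in CD11b-positive against 45.6 and 35.4 in CD11b-negative arrays, which overlapped (-0.28, 95% interval -0.95 to 0.40, adjusted p = 0.726). Follicular dendritic cells also carry Cr2; of 6 of their markers on the array, 2 were above background on all 4 arrays. They summed to 174 and 261 in CD11b-positive against 225 and 279 in CD11b-negative arrays, and their part in the value of Cr2 was not tested.

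Fcer2a, the low-affinity IgE receptor CD23 (chromosome 8), had 20.6 and 10.98 in CD11b-positive against 45.5 and 21.7 in CD11b-negative arrays. It was the member whose CD11b-positive arrays were both below both CD11b-negative arrays, by a narrow gap, as were 17.3% of all genes. Since neither CD11b-positive array exceeded background, the fold averaged over the kits is a bound, at least 1.21-fold lower with the 95th percentile as background. That bound rests on the One-Cycle pair. With the 99th percentile Fcer2a exceeded background on no array, so no decrease could be bounded. With 3' IVT Express the CD11b-negative signal (21.7) lay under the background of the CD11b-positive array (26.4), so no decrease was measured with that kit. The call was not made (adjusted p = 0.198, without the block 0.826). The probe set below background went the other way, at 1.29.

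**Figure D2:**
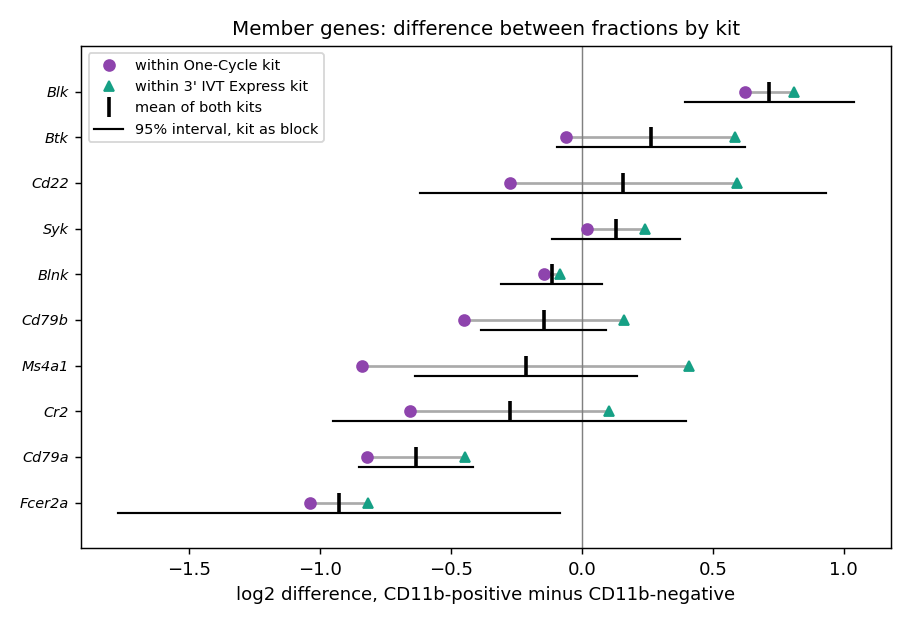
Log2 difference (CD11b-positive minus CD11b-negative) of each member within each kit, with the mean as a vertical mark and the 95% interval of limma with the kit as a block below it. Blk lies right of 0 and Cd79a and Fcer2a left of 0 with both kits, and 5 members change side with the kit. The points of Cd22 and Fcer2a with 3' IVT Express rest on signals near or below background and give no measured direction.

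The members' differences are given here by kit, which changes together with RNA amount and replicate. The median difference over the 10 members was -0.36 within One-Cycle and 0.20 within 3' IVT Express, against medians of -0.01 and 0.01 over all genes. All 10 members had a more positive difference within 3' IVT Express, as did 50.9% of all genes. Of the 10, 5 were lower in the CD11b-positive array with One-Cycle and higher with 3' IVT Express (Cd79b, Ms4a1, Cd22, Btk and Cr2), 2 were higher with both (Blk and Syk) and 3 lower with both (Cd79a, Blnk and Fcer2a). Of all genes, 31.6% were higher and 30.5% lower with both kits. These counts take signals below background at their value: those of Cd22 with 3' IVT Express have no measured direction, and the CD11b-negative signal of Fcer2a with that kit (21.7) lay under the background of the CD11b-positive array (26.4). The pooled median was -0.13, and 0.27 without CD11b-negative replicate 1. With 1 array per fraction and kit, a difference between kits has no test.

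Markers of other cells moved with the fractions too. The counts with the block are to be read beside 3.73% of all genes called higher and 4.14% lower. T, NK and innate lymphoid cell markers summed to 3175 and 1732 in CD11b-positive against 6135 and 2454 in CD11b-negative arrays, and 12 of 18 were above background on all 4 arrays. Their median difference was -0.92 within One-Cycle and -0.30 within 3' IVT Express, and with the block 6 of 16 tested were lower and 0 higher. The 22 gut epithelial markers had 21 tested genes, of which 15 were lower and 0 higher with the block, and summed to 4436 and 3198 in CD11b-positive against 8077 and 7968 in CD11b-negative arrays. Granulocyte and mast cell markers summed to 339 and 247 in CD11b-positive against 491 and 357 in CD11b-negative arrays, with 8 of 17 above background on no array. Of the 16 plasma cell markers, 1 was higher and 2 lower with the block. Sdc1, the syndecan CD138, had 3472 and 4155 in CD11b-positive against 5626 and 5941 in CD11b-negative arrays (1.52-fold lower, adjusted p = 8.98e-06). Tnfrsf13b, the receptor TACI, was 1.26-fold lower (adjusted p = 0.0194) and Eaf2 1.33-fold higher (adjusted p = 0.00280). Of 16 mature B cell markers tested, 0 were higher and 1 lower with the block, Tnfrsf13c, the BAFF receptor (1.83-fold lower, adjusted p = 0.000153), and their medians were 0.07 within One-Cycle and 0.03 within 3' IVT Express. The part of other cells, or of these marker differences, in the values of Cd79a, Ms4a1, Fcer2a, Fcgr2b and Cd81 was not tested.

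**Figure D3:**
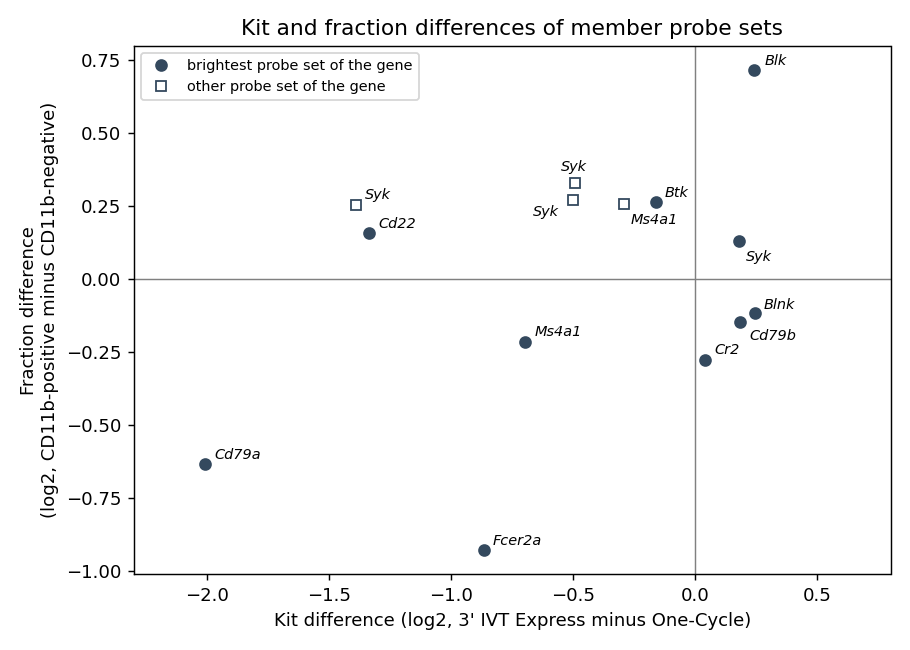
Fraction difference (CD11b-positive minus CD11b-negative, log2) against kit difference (3' IVT Express minus One-Cycle, log2) for the member probe sets above the low-signal filter; filled circles are the brightest probe set of a gene and open squares its others. Cd79a lies at -2.01 on the kit axis, and Blk at 0.72 on the fraction axis; Cd22 was below background with 3' IVT Express and Fcer2a on both CD11b-positive arrays.

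The rest of the pathway was examined with a list of 57 other genes, of which 49 were tested and the others not analysed here. With the block 2 were higher and 4 lower, against 3.73% and 4.14% of all genes. Within both kits 11 were higher and 26 lower, against 31.6% and 30.5% of all genes, and the median difference was -0.09. Without the block 0 of the 49 passed. At an unadjusted p under 0.05 in that limma fit, 1 was higher and 4 were lower, against 3.14% and 3.52% of all genes. As for the members, the blocked fit without the trend of error with signal called none of them.

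Fcgr2b, the inhibitory Fc receptor that recruits a phosphatase to the B cell receptor (chromosome 1), fell. Its signals were 525 and 795 in CD11b-positive against 886 and 1331 in CD11b-negative arrays, 1.68-fold lower (adjusted p = 1.39e-05). The fractions did not overlap, and the difference was -0.75 within One-Cycle and -0.74 within 3' IVT Express. The 3 other probe sets above the filter also gave lower values, at -0.62, -0.74 and -0.46. Fcrla, a B cell protein related to Fc receptors, had 167 and 169 in CD11b-positive against 330 and 253 in CD11b-negative arrays (1.71-fold lower, adjusted p = 0.00127). A second probe set of it gave -0.66 and the weakest 0.01, and the mean of all 3 did not pass (adjusted p = 0.126).

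Cd81, a tetraspanin of the B cell coreceptor, had 751 and 886 in CD11b-positive against 1232 and 1243 in CD11b-negative arrays (1.52-fold lower, adjusted p = 0.000227). Prkcd, a protein kinase C isoform, was 1.34-fold lower (adjusted p = 0.0288). In the opposite direction, Itpr3, a calcium channel of the endoplasmic reticulum opened downstream of Plcg2, had 507 and 407 in CD11b-positive against 268 and 229 in CD11b-negative arrays. It was 1.82-fold higher (adjusted p = 4.46e-05), with 0.91 within One-Cycle and 0.82 within 3' IVT Express. Rasgrp3, which activates Ras after receptor signalling, was 1.44-fold higher (adjusted p = 0.00220).

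Plcg2, Ptpn6 and Inpp5d did not pass with the block. Plcg2, the phospholipase that leads to calcium release, had 1239 ± 279 in CD11b-positive and 1326 ± 337 in CD11b-negative arrays (SD, n = 2 each), a difference of -0.09 (95% interval -0.29 to 0.11, adjusted p = 0.682) that turned to 0.05 relative to all genes on the deposited signals. The phosphatases Ptpn6 and Inpp5d, which act with inhibitory receptors, stood at -0.23 (95% interval -0.55 to 0.09) and -0.17 (95% interval -0.48 to 0.15). A second probe set of Ptpn6 gave 0.05.

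On the deposited signals the median of all genes stands 0.42 higher, and the blocked fit there tests differences from 0 with that shift left in. The 4 lower pathway genes were not called (adjusted p = 0.448 for Fcgr2b, 0.373 for Fcrla, 0.899 for Cd81 and 0.688 for Prkcd). Relative to all genes they stood at -0.61, -0.67, -0.45 and -0.30, and those relative values were not tested. Itpr3 and Rasgrp3 were called there.

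**Figure D4:**
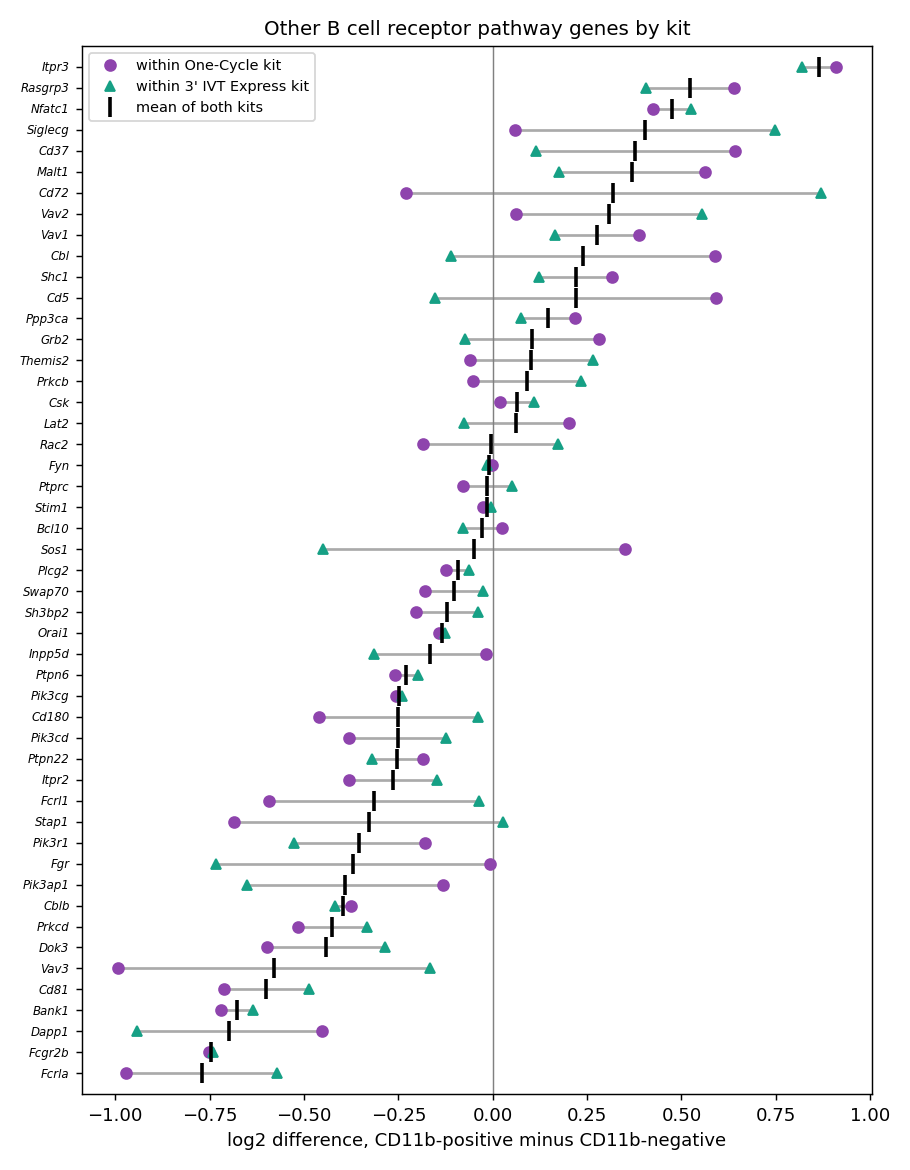
Log2 difference (CD11b-positive minus CD11b-negative) of the 49 other B cell receptor pathway genes within each kit (symbols) and as the mean of both (vertical mark), sorted by the mean. Itpr3 stands at the top and Fcgr2b and Fcrla at the bottom, each on the same side with both kits.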

How the data were processed

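Per the submitters' processing notes, the deposited intensity values are 1 linear signal per probe set made with MAS5 and Affymetrix Expression Console; software versions and the scaling are not stated. Of 45101 probe sets, 64 controls were left out; 34945 name 1 gene in the platform annotation, 932 several and 9160 none. Signals were quantile-normalized, 3 was added before log2, probe sets with a mean log2 value above the 40th percentile (a signal of about 9.51) were kept, and the brightest probe set per gene entered limma (version 3.58.1; R 4.3.3), with a variance trend, 2-sided tests and Benjamini-Hochberg adjustment over all genes. The fit was run on simulated data whose error was drawn from the variance trend of the blocked fit. Such data cannot show whether that trend holds for these arrays. Exact permutation over 4 arrays gives no p below 0.333, so none is given.

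The kit was also fitted as a block: deviations from fraction means of arrays of the same kit correlated across genes (r = 0.387), and the labels name the kit. That fit has 1 residual degree of freedom and a prior of 25.6.

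Members, lists and tests were chosen with earlier results of these data known. Named were all members, fraction and plasma cell genes, pathway genes called with the block and some of the markers of small p. The number of arrays limits precision. The alternatives were other pseudocounts, scalings, filters, probe set rules, no trend, the block and leaving out each array.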

Additional observations from a re-analysis of the deposited data

How the results depend on the processing

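The labels name the kit of each array, but not whether arrays of the same kit share mice or a sort. With the kit entered as a block, limma called 472 genes higher and 524 lower, with 1 member higher and 1 lower. Without the block the counts were 0 and 0, or 397 and 445 at an unadjusted p under 0.05 in limma. With the block the counts were 3655 higher and 154 lower with 3 members higher on the deposited signals, 1730 and 207 with 2 members higher after median centring (Cd79a not called, adjusted p = 0.0806), 406 and 420 with a common trimmed mean, 358 and 466 with cyclic loess, and 351 and 395 on averaging each gene's probe sets; the last 3 kept 1 member called in each direction. The block with no variance trend, chosen like the block on averaged probe sets after seeing the data, called 0 genes. The median of all genes shifted by 0.42 on the deposited and 0.21 on the centred signals (log2); relative to that, with and without the block, Cd79b turned to 0.020 and 0.0096, Plcg2 to 0.051 and 0.041, and the median of the other pathway genes moved to 0.014 and 0.00527. That median was -0.051 with the trimmed mean, -0.045 on averaged probe sets and -0.050 without cross-hybridising probe sets, where Ptpn6 turned to 0.047; Ms4a1 turned to 0.022 on averaging its probe sets. The cause was not tested. Calls and p-values on the deposited and centred signals are for differences from 0 with the shift of all genes left in. Prkcd was no longer called with the block and the trimmed mean (adjusted p = 0.0836) or centring (0.599), nor Fcrla (0.0506) or Cd81 (0.102) with centring.

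On leaving out each array, which leaves a lone array in 1 fraction that is assumed to vary like the rest, 0 to 2 genes were called higher and 0 to 23 lower. The median of the members ran from -0.33 to 0.27 and that of the other pathway genes from -0.099 to -0.027. Differences that changed sign ran from -1.73 to 0.46 for Cd79a, -0.39 to 0.10 for Cd79b, -0.87 to 0.45 for Ms4a1, -0.73 to 1.04 for Cd22, -0.013 to 0.27 for Syk, -0.25 to 0.023 for Blnk, -0.35 to 0.17 for Plcg2, -0.45 to 0.12 for Inpp5d and -0.44 to 0.071 for Prdm1. Of the other results for single genes, 768 kept direction and side of the threshold and 124 passed it only under an alternative. Each was compared with the fit without the block, which called 0 genes, so a lost call could not be counted. Calls made with the block and lost under another scaling are among the 768 and are given above. The calls of background rest on 44 probe sets, and signals near it, those of Cd22, Cr2 and Fcer2a, limit what can be told of these genes.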

Other observations

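Among the other pathway genes, 1 probe set separated the kits more than any member did. The brightest probe set of Pik3cd, a phosphoinositide 3-kinase subunit, had 86.1 and 3714 in CD11b-positive against 113 and 4045 in CD11b-negative arrays, where the higher value of each fraction is the 3' IVT Express array. Its kit difference was 5.25 on the log2 scale, while the 5 other probe sets of Pik3cd above the filter lay between -0.78 and 0.91. The brightest probe set of a gene can therefore be one whose signal differs far more between kits than that of its others. The fraction difference of Pik3cd was -0.25 for that probe set and 0.22, 0.66 and 1.13 for the next 3 by signal, none of which passed in a fit per probe set with the block (adjusted p = 0.524, 0.296 and 0.112).

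Such a split was also seen within Sdc1, the plasma cell marker CD138. One probe set had 449 and 132 in CD11b-positive against 617 and 138 in CD11b-negative arrays, a kit difference of -1.94 close to that of Cd79a, while the 3 other probe sets of Sdc1 lay between -0.21 and 0.17. Of the Syk probe sets, one had a kit difference of -1.39 and the brightest 0.18. Kit differences, which hold RNA amount and replicate as well, therefore differed between probe sets that name the same gene. Whether the value of Cd79a is of this kind was not tested, since the gene has 1 probe set.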
